A study of Mus musculus with 9 samples.

Results

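The proteasome subunit genes were chosen by symbol from the deposited mRNA table. They are the genes named Psma, Psmb, Psmc or Psmd with a number, together with Psme1 to Psme4 and without the immunoproteasome genes Psmb8, Psmb9 and Psmb10. The choice gave 40 of 21870 genes: 8 of the alpha ring, 8 of the beta ring, 6 ATPases and 11 non-ATPase subunits of the regulatory particle, 3 chaperones of its base (Psmd5, Psmd9 and Psmd10) and 4 activators. RNA was sequenced from livers of WT C57 BL6 mice aged 8 weeks and weighing about 20 g, in 3 groups of 3 libraries. The dmPGE2+APAP group was injected intraperitoneally with 300 μg/kg dmPGE2, a long-lived analogue of prostaglandin E2, 1 h before 500 mg/kg acetaminophen (APAP), an analgesic that injures the liver in overdose. The APAP group had the same APAP dose alone, and control mice were given saline. Collection of the livers was at 6 h after APAP. The labels number the libraries within each group but do not name the mice, so p-values measure the spread between these libraries, which may be partly technical. In whole liver, fewer cells of a type and less RNA per cell cannot be told apart.

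The proteasome is the protease that degrades proteins tagged with ubiquitin. Its barrel-shaped core particle is made of alpha rings, which gate the entrance, and beta rings, in which Psmb6, Psmb7 and Psmb5 carry the caspase-like, trypsin-like and chymotrypsin-like active sites. The regulatory particle binds the ubiquitin chain through its non-ATPases and unfolds the substrate with its ring of ATPases, while the activators Psme1 to Psme4 open the core without ubiquitin. In mammalian cells the subunit genes are known to be induced together by the transcription factor Nrf1 (Nfe2l1) when proteasome activity falls, and oxidative stress can act on some of them through Nrf2 (Nfe2l2). Both factors bind antioxidant response elements together with a small Maf protein.

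Promoters of 33 of the 40 genes were in a RefSeq promoter table (build GRCm38.p6), with 36 windows in all. The windows of 4 genes are shown: those of the catalytic genes Psmb5 and Psmb6, which hold the antioxidant response element core, and those of Psma4 and Psme2, the 2 genes called lower in APAP livers below. Each line gives the 250 bases before the start, 5′ to 3′ on the gene's strand, with the letters TGACNNNGC (N for any base, either strand) in capitals where they occur. The Psmb5 window lies at chr14:54617996-54618245 on the minus strand and the Psmb6 window at chr11:70525107-70525356 on the plus strand. The Psma4 window lies at chr9:54950609-54950858 on the plus strand and the Psme2 window at chr14:55591102-55591351 on the minus strand.
Psmb5: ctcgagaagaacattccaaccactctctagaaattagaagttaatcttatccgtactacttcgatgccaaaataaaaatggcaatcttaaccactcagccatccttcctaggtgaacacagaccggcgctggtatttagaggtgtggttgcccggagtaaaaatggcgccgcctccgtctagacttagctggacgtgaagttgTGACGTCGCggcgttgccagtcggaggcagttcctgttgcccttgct
Psmb6: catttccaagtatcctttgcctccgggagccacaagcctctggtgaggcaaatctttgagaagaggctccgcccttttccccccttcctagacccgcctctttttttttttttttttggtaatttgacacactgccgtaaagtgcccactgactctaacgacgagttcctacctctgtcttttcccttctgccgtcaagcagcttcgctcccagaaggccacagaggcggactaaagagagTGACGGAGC
Psma4: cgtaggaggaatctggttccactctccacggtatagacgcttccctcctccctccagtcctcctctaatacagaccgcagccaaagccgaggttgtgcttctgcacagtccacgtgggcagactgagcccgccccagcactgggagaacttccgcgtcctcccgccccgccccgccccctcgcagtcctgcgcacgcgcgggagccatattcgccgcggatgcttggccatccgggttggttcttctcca
Psme2: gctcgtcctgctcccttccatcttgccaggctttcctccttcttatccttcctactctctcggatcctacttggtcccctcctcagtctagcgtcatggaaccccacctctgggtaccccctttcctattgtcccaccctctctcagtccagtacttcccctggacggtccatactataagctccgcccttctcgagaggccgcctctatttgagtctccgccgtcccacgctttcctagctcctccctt
In Psmb5 the element's first printed base was 47 bases before the start and in Psmb6 it was 9 bases before it. The Psma4 and Psme2 windows held none of the 3 motifs searched, which says only that these letters are not there. TGACNNNGC was in 6 of the 36 windows (16.7%), those of Psmb5, Psmb6, Psmc6, Psmd12, Psmd9 and Psme4, and in 12.4% of all 32851 promoters of the table. The search covered 250 bases before to 50 after the start, on both strands. CCAAT, the box bound by NF-Y, was in 13 of the 36 (36.1%), against 37.4% of all promoters. The core of the interferon-stimulated response element, GAAA and GAAA with any 2 bases between them, was in 4 of the 36 (11.1%), those of Psmb3, Psmd4, Psmd9 and Psme1, against 3.44% of all promoters. In none of the 36 windows did matches of different motifs overlap. None of these shares was tested.

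The mRNA values are FPKM, fragments scaled by transcript length and library size, so similar sums are set by the scaling. They summed to between 371958 and 393938 per library, and 9979 to 10321 genes were at 1 FPKM or more. The read depth is unknown. The 8 hepatocyte markers were Alb, Apoa1, Ttr, Hnf4a, Cyp2e1, Tat, Ass1 and Cps1. They summed to between 42392 and 46668 FPKM in dmPGE2+APAP livers, 39766 and 47256 FPKM in APAP livers, and 34867 and 37814 FPKM in control livers. Single log2 fold changes ran from -0.25 to 1.12 for APAP against control, with none called. For dmPGE2+APAP against control they ran from -0.01 to 1.64, and only Tat was called, as higher. The sum is therefore not a measure of hepatocyte content. Proteasome transcripts made up 0.348% to 0.366% of the mRNA FPKM in dmPGE2+APAP livers, 0.337% to 0.396% in APAP livers and 0.345% to 0.442% in control livers. The lowest control share was that of control 3, which stood apart from the other controls for these genes. Of the 39 members that could be tested, 36 were lower in control 3 than in the mean of controls 1 and 2, with a median deviation of -0.41 on the log2 scale, while controls 1 and 2 differed by a median of 0.07. Over all genes tested the median deviation of control 3 was -0.02, a value that the rescaling between libraries holds near 0. Regardless of sign, the median deviation of control 3 was 0.21 over all genes tested and 0.41 over the members. The median deviation was -0.36 for core subunits and -0.57 for regulatory particle subunits. Control 3 was singled out by these same values, so leaving it out lowers most members' folds against control by construction. Values without it show only how far a result depends on this library, and are not separate evidence of a decrease. They are given for the calls and medians and for many of the named fold changes.

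FPKM corrects for length, so levels of subunit genes can be set side by side, within a limit. Near-identical sequences in other genes may share the reads of 12 members, so the levels and order of these genes are uncertain. Among the 12 are Psmb5 (pseudogene Gm3375, 98.9% identical over 796 bases) and Psmd2 (pseudogene Gm5422, 96.4% over 2726 bases). For Psmb7, Psmd13 and Psmd1 the only match was a gene that overlaps the member (Nek6, Sirt3 and Gm21972), and not a separate copy. In the mean of the 9 libraries, the alpha ring genes Psma1 to Psma7 ran from 16.5 FPKM (Psma2) to 71.9 FPKM (Psma6). The beta ring genes Psmb1 to Psmb7 were the highest group, from 29.6 FPKM (Psmb2) to 83.7 FPKM (Psmb6). The ATPases had the narrowest range among the ring subunits, from 27.0 FPKM (Psmc5) to 44.2 FPKM (Psmc1). Levels of the non-ATPases lay between 19.0 FPKM for the lid subunit Psmd13 and 53.8 FPKM for Psmd2, a large scaffold subunit of the base. The base chaperones were lower, from 3.24 FPKM for Psmd10 (gankyrin) to 12.1 FPKM for Psmd9. The activators ran from 20.6 FPKM (Psme3, the nuclear activator) to 36.7 FPKM (Psme4). The pair Psmb11 and Psma8 are forms of other tissues. Psmb11, the thymus form of a catalytic subunit, was between 0 and 0.0204 FPKM and was not tested. Psma8, the testis form of an alpha subunit, was between 0.231 and 0.683 FPKM and passed the filter for low values (0.5 FPKM in at least 3 libraries) only through APAP 2, control 1 and control 3.

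**Figure D1:**
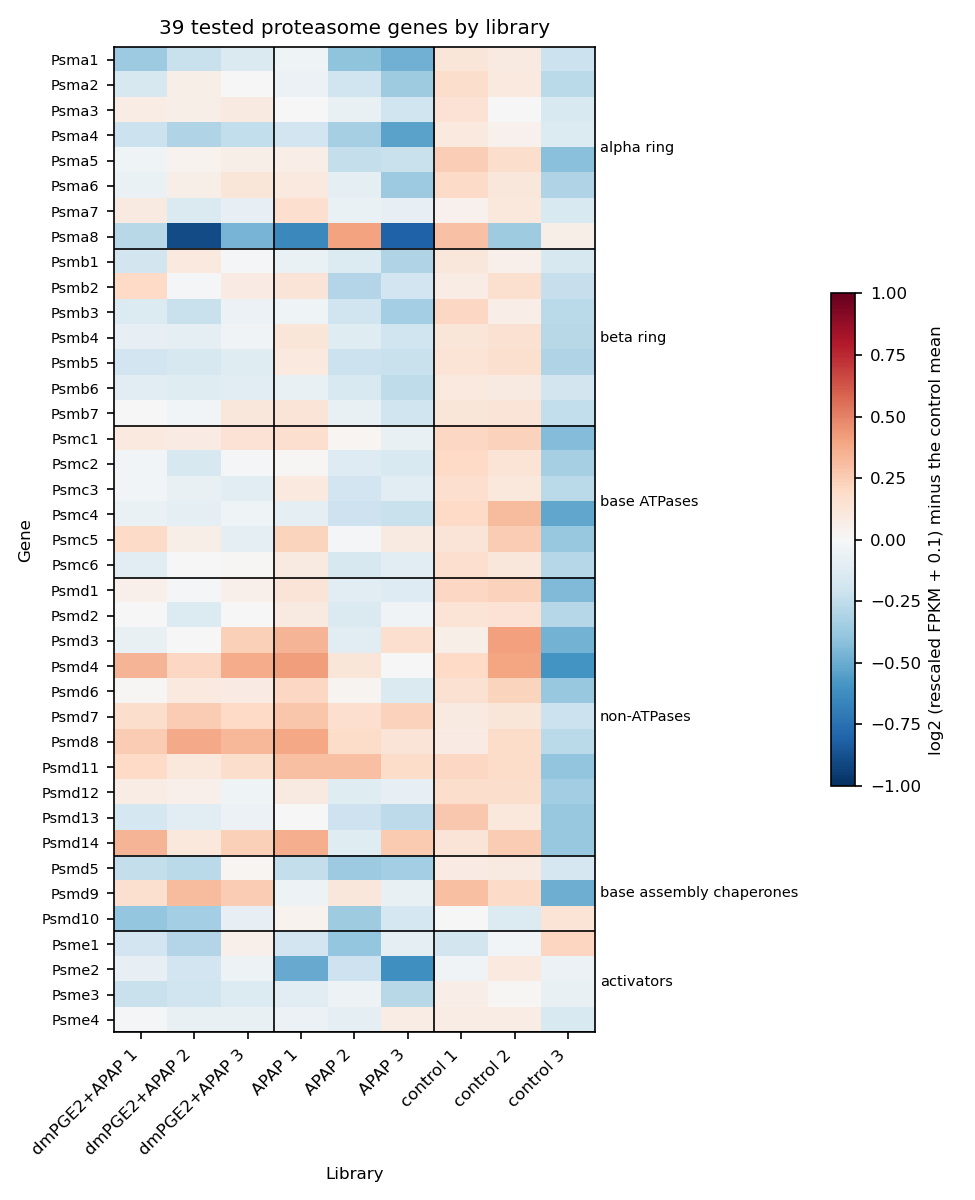
Log2 (rescaled FPKM + 0.1) of each of the 39 tested proteasome genes (rows, by role) minus its mean in the 3 control libraries, with 1 column per library. Red is above and blue below the control mean, and the control 3 column is bluer than those of controls 1 and 2 for 36 of the 39 genes.

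APAP was compared with control to see how the proteasome genes stood 6 h after the overdose. None of the 39 tested genes was higher in APAP livers and 2 were lower, the activator Psme2 and the alpha subunit Psma4. A call is an adjusted p of at most 0.05 in limma with Benjamini-Hochberg adjustment over all 11557 genes tested, which called 20.9% of them (11.2% higher and 9.73% lower). The share of the members called was thus below that of all genes, with 3 members (of 39) at an unadjusted p under 0.05, where 35.6% of all genes were. The log2 fold changes ran from -0.44 to 0.26, and 29 of the 39 were below 0. Their median was -0.09, beside -0.02 for all genes. The 95% confidence interval of the change lay within a 2-fold change either way for 38 of the 39 and within a 1.5-fold change for 31, whereas it lay within 1.5-fold for 45.4% of all genes. Fold changes are relative to a rescaling between libraries, which removed a shift of -0.12 on the log2 scale, so the members' folds of APAP against control are higher than the ratios of the FPKM means printed here.

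Psme2 encodes the beta subunit of the activator PA28, which joins Psme1 in a ring that caps the core. It had 21.8, 21.4 and 22.7 FPKM in dmPGE2+APAP livers, 16.8, 20.2 and 16.0 FPKM in APAP livers, and 24.8, 27.3 and 26.0 FPKM in control livers. The 3 groups did not overlap: APAP livers were the lowest, control livers the highest and dmPGE2+APAP livers in between. It averaged 17.7 ± 2.24 FPKM in APAP livers and 26.0 ± 1.24 FPKM in control livers (SD, n = 3 each), a log2 fold change of -0.44 (SE 0.11; 0.736-fold; limma adjusted p = 0.0244). Psme2 has a near copy, Psme2b, which is 99.4% identical to it over 794 bases, and how reads were divided between them is not given in the sources used here. Psme2b was listed at 7.25, 11.2 and 6.93 FPKM in dmPGE2+APAP livers, 13.96, 9.93 and 7.38 FPKM in APAP livers, and 9.29, 11.5 and 13.7 FPKM in control livers, which overlap. With the pair summed, a choice made after seeing the data, the log2 fold change was -0.30 and the call was lost (adjusted p = 0.114). It was also lost without APAP 1, APAP 3, control 1 or control 2 (adjusted p = 0.0525 to 0.0791), so the Psme2 call is uncertain.

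Psma4 (α3) is one of the 7 constitutive alpha ring subunits. It had 45.7, 45.2 and 45.3 FPKM in dmPGE2+APAP livers, 48.0, 42.5 and 38.7 FPKM in APAP livers, and 62.3, 60.1 and 56.4 FPKM in control livers. Every treated library was below every control, and the dmPGE2+APAP values lay inside the APAP range. Its mean was 43.1 ± 4.67 FPKM in APAP livers and 59.6 ± 3.00 FPKM in control livers (SD, n = 3 each), a log2 fold change of -0.35 (SE 0.11; 0.783-fold; limma adjusted p = 0.0475). The call is close to the threshold: it held without APAP 1 or control 3 but was lost without any 1 of the other libraries (adjusted p = 0.0659 to 0.136). AY074887 overlaps Psma4 on the opposite strand, and the pseudogene Gm6542 is 96.8% identical over 783 bases, so its reads could be shared.

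No other alpha ring gene was called. Over the 8, Psma4 included, log2 fold changes for APAP against control ran from -0.35 to 0.01 with a median of -0.17, and 7 of the 8 were below 0. Psma1 had 31.7 ± 5.27 FPKM in APAP livers and 42.4 ± 3.86 FPKM in control livers, and its groups did not overlap (log2 fold change -0.31, adjusted p = 0.15 in limma, and -0.42 without control 3, adjusted p = 0.0647). Psma6, the gene with the highest level in this ring, had 65.7 ± 9.74 FPKM in APAP livers and 77.8 ± 10.95 FPKM in control livers, which overlap. Psma2, which had the lowest, was at 14.7 ± 1.39 FPKM in APAP livers and 18.5 ± 2.31 FPKM in control livers. Psma8 was at 0.408 ± 0.238 FPKM in APAP livers and 0.562 ± 0.147 FPKM in control livers, the widest interval of the members (0.454- to 1.36-fold).

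No beta ring gene was called. All 7 tested had log2 fold changes below 0, between -0.19 and -0.05, with a median of -0.12. Psmb5, the chymotrypsin-like subunit, had 51.9, 55.6 and 55.2 FPKM in dmPGE2+APAP livers, 65.3, 51.3 and 53.5 FPKM in APAP livers, and 71.5, 72.9 and 56.1 FPKM in control livers. APAP 1 was above control 3, so the APAP and control groups overlapped (0.923-fold, 95% interval 0.740 to 1.152, limma adjusted p = 0.597). Psmb6, the caspase-like subunit, had 77.6, 81.1 and 78.7 FPKM in dmPGE2+APAP livers, 82.2, 76.1 and 74.2 FPKM in APAP livers, and 98.5, 98.3 and 86.3 FPKM in control livers. Every control was above every treated library, and the fold was 0.894 (0.763 to 1.05, limma adjusted p = 0.282). Psmb7, the trypsin-like subunit, had 62.4, 63.9 and 68.2 FPKM in dmPGE2+APAP livers, 70.0, 59.4 and 57.1 FPKM in APAP livers, and 74.1, 74.7 and 61.1 FPKM in control livers. Its groups overlapped through control 3 (0.966-fold, 0.789 to 1.18, limma adjusted p = 0.813).

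The regulatory particle had no called gene in APAP livers. Among the 6 ATPases, which form the unfolding ring, log2 fold changes ran from -0.17 (Psmc4) to 0.10 (Psmc5), with 4 below 0. The 11 non-ATPases had a median of 0.13, and 7 of them were above 0. The highest value among them was 0.26 for Psmd11, a lid subunit (adjusted p = 0.251 in limma), which was 0.06 without control 3. Psmd8, another lid subunit, had 39.8, 45.7 and 42.7 FPKM in dmPGE2+APAP livers, 45.1, 38.2 and 38.7 FPKM in APAP livers, and 38.9, 41.7 and 32.5 FPKM in control livers. Psmd4, the ubiquitin receptor, had 45.1, 43.2 and 46.5 FPKM in dmPGE2+APAP livers, 49.1, 39.04 and 37.4 FPKM in APAP livers, and 44.7, 51.5 and 27.5 FPKM in control livers. For both genes control 3 was the lowest library, and the groups overlapped. Their log2 fold changes for APAP against control were 0.23 (Psmd8) and 0.18 (Psmd4), and 0.10 and -0.12 without control 3. The deubiquitinase subunit Psmd14 had 24.2 ± 4.41 FPKM in APAP livers and 23.5 ± 4.39 FPKM in control livers (SD, n = 3 each).

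Among the base chaperones, which help assemble the ATPase ring, Psmd5 had 5.56, 5.71 and 6.74 FPKM in dmPGE2+APAP livers, 5.74, 5.12 and 5.47 FPKM in APAP livers, and 7.64, 7.70 and 6.82 FPKM in control livers. All controls were above all treated libraries, but the change was not called (log2 fold change for APAP against control -0.31, limma adjusted p = 0.0809). Psmd10 and Psmd9 had log2 fold changes of -0.17 (Psmd10) and -0.0045 (Psmd9), which were not called. Without control 3 they were -0.10 (Psmd10) and -0.25 (Psmd9), again not called. Psme1, the partner of Psme2 in PA28, had 20.2, 19.8 and 24.3 FPKM in dmPGE2+APAP livers, 20.9, 17.9 and 22.9 FPKM in APAP livers, and 22.3, 24.9 and 31.5 FPKM in control livers. Control 3 was its highest library, and the groups overlapped. Psme3 had 17.9, 19.2 and 19.3 FPKM in dmPGE2+APAP livers, 20.1, 20.4 and 18.3 FPKM in APAP livers, and 24.0, 23.2 and 23.2 FPKM in control livers, with no overlap between treated and control (0.906-fold for APAP against control, limma adjusted p = 0.275; log2 fold change -0.14, and -0.18 without control 3). Psme4 (PA200), the large single-chain activator, was at 35.8 ± 3.00 FPKM in APAP livers and 39.5 ± 2.11 FPKM in control livers. In all, the FPKM of 8 of the 39 members did not overlap between APAP and control, whereas 43.6% of all genes tested did not overlap. Without control 3, in which most members were low, the count was 28 of the 39, where 55.2% of all genes did not overlap. This count was set in part by the choice of library.

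**Figure D2:**
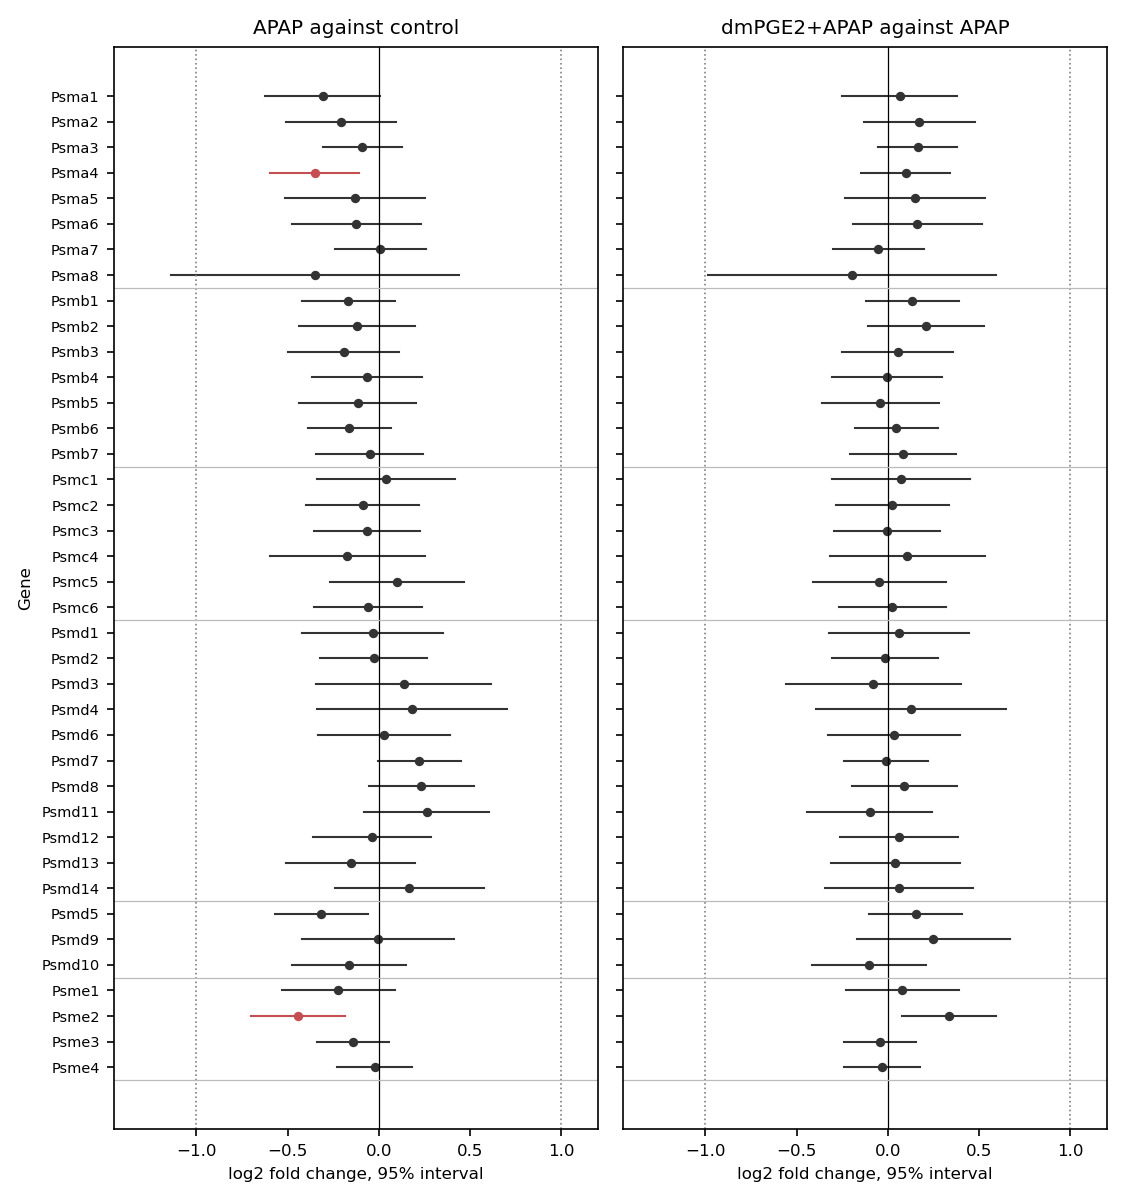
Log2 fold change (points) with its 95% confidence interval (bars) of each tested proteasome gene, in order of role, for APAP against control (left) and dmPGE2+APAP against APAP (right); red marks an adjusted p of at most 0.05 in limma, and dotted lines mark a 2-fold change. On the left Psme2 (-0.44) and Psma4 (-0.35) are red, on the right no gene is, and Psma8 has the widest interval.

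The position of the whole group depended on which control was left out. Without control 1 the members' median log2 fold change for APAP against control was -0.002, with 19 above and 19 below 0. Without control 2 it was -0.02, with 17 above and 22 below. No member was called in either case, where 15.7% and 14.1% of all genes were. Without control 3, singled out by these same values, 35 of 38 tested members were below 0. The median was then -0.21, beside -0.04 for all genes. In that fit 4 members were called lower and none higher (9.20% of all genes were called lower). The 4 were Psme2 (-0.48), Psma4 (-0.43), Psmd5 (-0.40) and the ATPase Psmc4, whose log2 fold change was -0.44 (limma adjusted p = 0.00942). Psmc4 had 36.4, 37.6 and 37.5 FPKM in dmPGE2+APAP livers, 36.8, 33.3 and 34.6 FPKM in APAP livers, and 48.0, 52.3 and 31.1 FPKM in control livers, of which 31.1 FPKM was control 3. The non-ATPases then had a median of -0.12, against 0.13 with control 3. The catalytic genes were not called either way, with log2 fold changes of -0.27 for Psmb5, -0.26 for Psmb6 and -0.18 for Psmb7 without control 3. The ratio of summed core to summed regulatory particle FPKM was 1.08, 1.10 and 1.11 in dmPGE2+APAP livers, 1.08, 1.10 and 1.00 in APAP livers, and 1.18, 1.12 and 1.33 in control livers, the highest being control 3.

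The immunoproteasome genes, which are not members, replace the 3 catalytic subunits in cells exposed to interferon and in leukocytes. Psmb9 had 1.10, 1.17 and 1.25 FPKM in dmPGE2+APAP livers, 1.04, 1.21 and 1.13 FPKM in APAP livers, and 2.54, 1.52 and 3.21 FPKM in control livers. Psmb10 had 4.24, 3.53 and 3.29 FPKM in dmPGE2+APAP livers, 3.59, 3.76 and 3.35 FPKM in APAP livers, and 6.19, 5.44 and 10.3 FPKM in control livers. Both fell in APAP livers relative to control, Psmb9 by 0.87 (adjusted p = 0.0244) and Psmb10 by 0.84 (adjusted p = 0.0191) on the log2 scale in limma, and no treated library overlapped a control. Psmb8 had 3.14, 2.88 and 3.44 FPKM in dmPGE2+APAP livers, 3.53, 2.84 and 3.00 FPKM in APAP livers, and 3.82, 3.73 and 7.25 FPKM in control livers, with a log2 fold change for APAP against control of -0.46 that was not called. Control 3, the lowest control for the standard catalytic subunits, was the highest library for all 3 of these genes. Without it the Psmb8 log2 fold change was -0.19. Without control 3 Psmb10 was still called lower in APAP livers (log2 fold change -0.60, limma adjusted p = 0.0221) and Psmb9 was no longer called (-0.67, adjusted p = 0.0582). The Psmb9 call was also lost without APAP 1, APAP 3 or control 1, and the Psmb10 call without APAP 1 or APAP 3. Relative to control, dmPGE2+APAP livers had log2 fold changes of -0.80 for Psmb9 (adjusted p = 0.0394) and -0.79 for Psmb10 (adjusted p = 0.0302). Without control 3 the adjusted p was 0.0924 for Psmb9 and 0.0376 for Psmb10. In that comparison the Psmb9 call held in 7 of 18 alternatives and was lost without any 1 of the APAP or dmPGE2+APAP libraries, control 1 or control 3. The Psmb10 call held in 14 and was lost without dmPGE2+APAP 2 or 3. With the replicate number as a block the adjusted p was 0.0578 for Psmb9 and 0.0564 for Psmb10. Psmb10 was 6.79%, 5.53% and 4.82% of Psmb7 in dmPGE2+APAP livers, 5.14%, 6.34% and 5.87% in APAP livers, and 8.36%, 7.29% and 16.8% in control livers. The exact two-sided permutation test of this ratio for APAP against control gave p = 0.1, the smallest that 3 against 3 libraries can give. The same exact test gave p = 0.2 for Psmb9 relative to Psmb6 and p = 1 for Psmb8 relative to Psmb5.

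**Figure D3:**
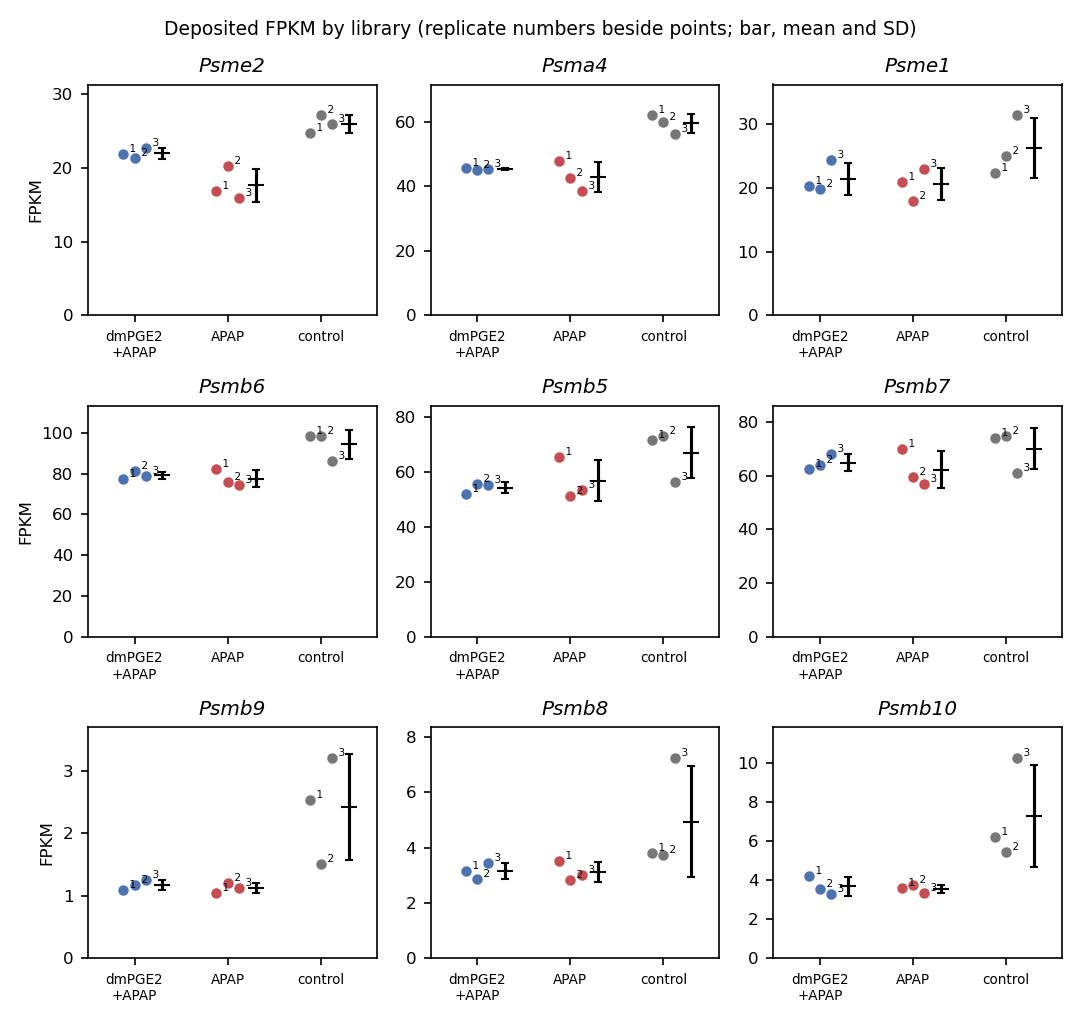
Deposited FPKM of Psme2, Psma4 and Psme1 (top), of the catalytic subunits Psmb6, Psmb5 and Psmb7 (middle) and of their immunoproteasome counterparts Psmb9, Psmb8 and Psmb10 (bottom) in each library (points, with replicate numbers); bars are group means with SD. Control 3 is the lowest control for the 3 standard genes and the highest for the 3 immunoproteasome genes.

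The leukocyte markers moved in both directions. Of the 14, 11 passed the filter, of which 2 were higher in APAP livers than in control livers (Cd68 and S100a8) and 2 were lower (Cd52 and Coro1a). The Cd68 call held in 18 of 18 alternatives, Cd52 in 17, and S100a8 and Coro1a in 7 each. Their summed level was 62.6 to 71.3 FPKM in dmPGE2+APAP livers, 49.4 to 95.7 FPKM in APAP livers and 66.2 to 78.6 FPKM in control livers. The lymphocyte markers Cd3e, Cd79a and Nkg7 were under the filter and were not tested. The marker Itgam was listed at 0 in APAP 2 and no other value of the list was 0. The part of leukocytes in the values of Psmb9, Psmb10 and Psme2 was not tested.

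dmPGE2+APAP was compared with APAP to see whether the pretreatment altered the proteasome genes in injured livers. None of the 39 was called in limma, where the call rate over all 11557 genes was also 0. At an unadjusted p under 0.05 there was 1 member of the 39, Psme2, where 9.32% of all genes were. The median log2 fold change was 0.06, beside 0.01 for all genes, and 26 of the 39 were above 0. The 95% interval lay within a 2-fold change for all 39 tested members and within a 1.5-fold change for 35. The Psme2 values given above did not overlap between dmPGE2+APAP and APAP livers, with a log2 fold change of 0.34 (1.26-fold, 95% interval 1.06 to 1.51, limma adjusted p = 0.420). Psmd9 was at 13.0 ± 1.02 FPKM in dmPGE2+APAP livers and 11.01 ± 0.583 FPKM in APAP livers (SD, n = 3 each), and the log2 fold change was 0.25 (adjusted p = 0.718 in limma). The catalytic genes had intervals of 0.779 to 1.21 (Psmb5), 0.882 to 1.21 (Psmb6) and 0.865 to 1.30 (Psmb7) times the APAP level. In all, 4 of the 39 members did not overlap, Psme2, Psma3, Psmd9 and Psmd11, whereas 16% of all genes tested did not.

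In the comparison of dmPGE2+APAP with control, which shares its controls with the APAP comparison, no member was called in limma, while 16.3% of all genes were (8.62% higher and 7.72% lower). At an unadjusted p under 0.05 there were 2 members of the 39, Psmd8 and Psma4, where 31.4% of all genes were. Psmd8 had a log2 fold change of 0.32 (adjusted p = 0.119), and Psma4 one of -0.25 (adjusted p = 0.144), in limma. Without control 3 these were 0.19 for Psmd8 and -0.33 for Psma4, again not called. The median was -0.04 beside -0.01 for all genes, and 17 of the 39 were above 0. Psma8 had the lowest log2 fold change, -0.55, at 0.317 ± 0.0794 FPKM in dmPGE2+APAP livers and 0.562 ± 0.147 FPKM in control livers (SD, n = 3 each), and was not called. The FPKM of 10 of the 39 did not overlap, whereas 42.4% of all genes did not. Leaving control 3 out, 32 of the 39 did not overlap, where 55.4% of all genes did not, a count set in part by the choice of library. Without control 3 the ATPase Psmc4 was called lower (log2 fold change -0.33, limma adjusted p = 0.0333), where 6.79% of all genes were called lower. In that fit 34 of 38 were below 0 and the median was -0.16. Without control 1 the median was 0.04, with 25 above and 13 below 0. Without control 2 it was 0.02, with 24 above and 15 below. No member was called in either case, where 11.7% and 10.3% of all genes were.

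The genes that act upstream of the proteasome were described from lists by role. Ubiquitin is made from polyubiquitin genes and activated by an E1 enzyme. The polyubiquitin gene Ubb had 267, 245 and 230 FPKM in dmPGE2+APAP livers, 267, 239 and 257 FPKM in APAP livers, and 156, 159 and 121 FPKM in control livers. All treated libraries were above all controls, and Ubb rose 1.91-fold in APAP livers relative to control (limma adjusted p = 0.00263). The E1 enzymes Uba1 and Uba6 were not called. None of the 5 shuttle factors, which carry ubiquitinated proteins to the proteasome, was called in limma, and none had an unadjusted p under 0.05.

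Of 12 genes for transcriptional and stress control of the proteasome, 11 were tested. In APAP livers none fell (9.73% of all genes were called lower) and 5 rose (11.2% were called higher). They were the small Maf genes Maff (14.03-fold) and Mafk (4.84-fold), Zfand5 (3.04-fold) and Zfand2a (2.72-fold), which encode zinc finger proteins that bind the proteasome, and Bach1 (2.18-fold), which encodes a repressor at antioxidant response elements. Maff had 18.6, 11.1 and 9.28 FPKM in dmPGE2+APAP livers, 29.2, 15.1 and 26.4 FPKM in APAP livers, and 1.39, 1.30 and 2.498 FPKM in control livers. Zfand5 had 15.7, 13.4 and 11.3 FPKM in dmPGE2+APAP livers, 17.9, 22.2 and 18.5 FPKM in APAP livers, and 6.71, 7.85 and 6.18 FPKM in control livers. For both genes every treated library was above every control. The mRNAs of the factors themselves were not called: Nfe2l1 had a log2 fold change of 0.52 (adjusted p = 0.14) and Nfe2l2 of 0.27 (adjusted p = 0.317) in limma. Nfe2l1 had 23.3, 16.8 and 22.0 FPKM in dmPGE2+APAP livers, 25.0, 22.8 and 21.3 FPKM in APAP livers, and 11.9, 17.7 and 24.8 FPKM in control livers, so its groups overlapped. Without control 3, its highest control, Nfe2l1 was called higher in APAP livers (log2 fold change 0.75, limma adjusted p = 0.0359), and Nfe2l2 had 0.44 (adjusted p = 0.0894). Leaving out the highest control raises the Nfe2l1 fold by construction, so this call is not separate evidence of a rise. The calls of Maff, Mafk, Zfand5, Zfand2a, Bach1 and Ubb held in each of 18 alternatives.

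In dmPGE2+APAP livers, 4 of the 11 rose relative to control, Maff, Mafk, Zfand5 and Zfand2a, together with Ubb. In that comparison 8.62% of all genes were called higher. Between dmPGE2+APAP and APAP none of the 11 was called in limma and 5 had an unadjusted p under 0.05, where 9.32% of all genes had. The median log2 fold change of the 11 was -0.41, beside 0.01 for all genes. Bach1 had 23.2, 15.4 and 16.5 FPKM in dmPGE2+APAP livers and 33.3, 24.0 and 36.4 FPKM in APAP livers, a log2 fold change of -0.75 (adjusted p = 0.316). Mafk had 16.5, 12.4 and 11.9 FPKM in dmPGE2+APAP livers and 22.1, 17.2 and 21.9 FPKM in APAP livers, a log2 fold change of -0.57 (adjusted p = 0.316). In both genes the dmPGE2+APAP values lay below all APAP values, and 16% of all genes tested did not overlap in this comparison.

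Assembly factors and partners showed few differences. Of 9 genes for core assembly and inhibition, 8 were in the table, and Psmg2, a chaperone of alpha ring assembly, fell by 0.61 on the log2 scale in APAP livers relative to control (limma adjusted p = 0.0427). It had 3.48, 5.84 and 4.13 FPKM in dmPGE2+APAP livers, 4.53, 4.78 and 3.57 FPKM in APAP livers, and 6.84, 6.68 and 7.85 FPKM in control livers. The call held in 10 of 18 alternatives and was lost without APAP 1, APAP 3, dmPGE2+APAP 3 or any of the controls. Pomp, the maturation factor of the core, had 22.9 ± 3.12 FPKM in APAP livers and 30.8 ± 0.583 FPKM in control livers (log2 fold change -0.31, limma adjusted p = 0.0573; -0.34 without control 3, adjusted p = 0.0717). None of the 6 regulatory particle partners was called in limma, and 1 had an unadjusted p under 0.05, the deubiquitinase Usp14 (log2 fold change 0.54, and 0.29 without control 3). In dmPGE2+APAP livers relative to control, none of the 6 partners was called either, and their lowest log2 fold change was -0.15. When control 3 was left out, the ubiquitin receptor Adrm1 was called lower (log2 fold change -0.41, limma adjusted p = 0.0458). In that fit 6.79% of all genes were called lower.

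**Figure D4:**
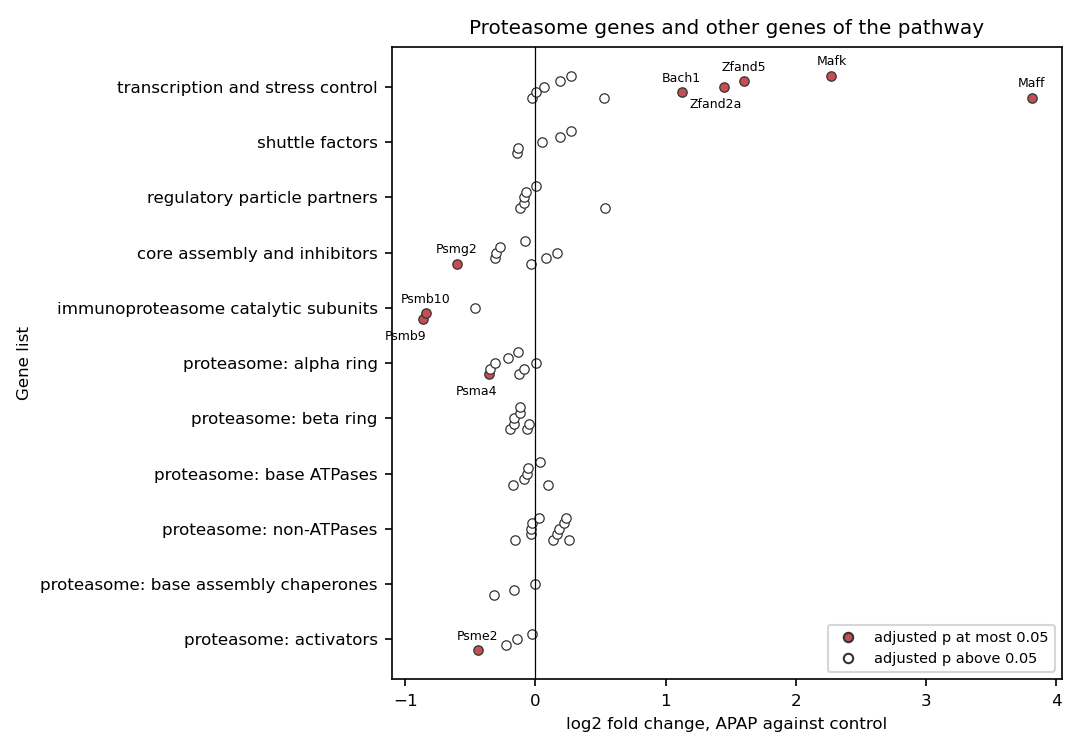
Log2 fold change, APAP against control, of the pathway genes by list and of the proteasome members by role, with 1 point per gene; red points have an adjusted p of at most 0.05 in limma. Maff, Mafk, Zfand5, Zfand2a and Bach1 are called higher, while the 39 members lie between -0.44 and 0.26.

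The deposited lncRNA table also listed non-coding transcripts under the names of the same genes, a readout that the choice of members did not use. It held 121 transcripts of 33 member genes, of which 79 are annotated in GENCODE M21 as retained introns, 38 as processed transcripts, and 4 were absent from that release. These 4, Psme3-AS1, which is an antisense RNA by its name, Psmc3-OT1, Psmd14-OT1 and Psmd5-OT1, were placed with a member by the table's gene name alone and may not be isoforms of it. At 0.1 FPKM in at least 3 libraries, 110 from 32 genes were tested. In APAP livers 6 were higher than in control and 1 was lower, beside 2.73% higher and 0.931% lower (3.66% either way) of the 22984 transcripts of the whole table, and 29 of the 110 had an unadjusted p under 0.05, where 18.7% of the whole table had. Of the 110, 84 had log2 fold changes above 0. Their median was 0.38, beside 0.11 for all transcripts. The whole table also holds other kinds of transcript, and retained introns and processed transcripts of other genes were not compared. Whether the shift is particular to proteasome genes was therefore not tested. Without the 4 transcripts placed by name alone, 83 of 106 were above 0 with a median of 0.39, and the 7 calls are all among these 106. Without control 3, 85 of 109 were above 0, the median was 0.28 beside 0.09 for all transcripts, and 3 were called, where 1.48% of all transcripts were. Summed over the 121, they came to 110, 120 and 112 FPKM in dmPGE2+APAP livers, 115, 100 and 132 FPKM in APAP livers, and 94.9, 95.6 and 76.2 FPKM in control livers. All treated libraries were thus above all controls, whereas the sums of the host genes were 1200, 1246 and 1262 FPKM in dmPGE2+APAP livers, 1323, 1140 and 1152 FPKM in APAP livers, and 1466, 1481 and 1181 FPKM in control livers.

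The isoform with the largest rise was Psme4-207, a processed transcript at chr11:30865469-30874204 inside Psme4. It had 0.913, 0.833 and 0.829 FPKM in dmPGE2+APAP livers, 0.726, 0.903 and 1.29 FPKM in APAP livers, and 0.131, 0.0747 and 0.254 FPKM in control livers. The treated libraries did not overlap the controls, and the fold for APAP against control was 4.24 (95% interval 2.597 to 6.91, limma adjusted p = 0.0115). Its host gene, by contrast, was at 0.984-fold in the same comparison. Psme4-203, a second processed transcript of this gene at chr11:30811537-30813729, had 0.805, 1.03 and 0.852 FPKM in dmPGE2+APAP livers, 1.47, 1.31 and 2.06 FPKM in APAP livers, and 0.474, 0.434 and 0.613 FPKM in control livers. The 3 groups did not overlap, with APAP livers the highest, and the fold for APAP against control was 2.74 (limma adjusted p = 0.0182). The change between dmPGE2+APAP and APAP was not called (0.618-fold, limma adjusted p = 0.693).

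Psmd8-205, a retained intron of Psmd8, had 0.798, 1.41 and 0.982 FPKM in dmPGE2+APAP livers, 1.30, 1.09 and 1.43 FPKM in APAP livers, and 0.362, 0.265 and 0.400 FPKM in control livers. Psmd4-205, a retained intron of the ubiquitin receptor gene, had 1.67, 1.56 and 1.64 FPKM in dmPGE2+APAP livers, 1.84, 1.56 and 1.83 FPKM in APAP livers, and 0.439, 0.912 and 0.517 FPKM in control livers. In both the treated libraries were all above the controls, and APAP stood at 3.06-fold (Psmd8-205, adjusted p = 0.0165) and 2.59-fold (Psmd4-205, adjusted p = 0.0311) of control in limma. Psmd1-207 rose 2.63-fold and Psmd14-202 rose 2.54-fold (limma adjusted p = 0.0430 and 0.0467). The lower one was Psme1-205, a retained intron listed at 0 in every APAP library. It was at 0, 0.204 and 0 FPKM in dmPGE2+APAP livers and at 0.228, 0.533 and 0.343 FPKM in control livers, so no fold is given. Psme1-205 passed the filter through the controls, with no APAP library reaching 0.1 FPKM, so its call was partly set by the filter. These isoforms overlap their host genes and were at levels near 1 FPKM, so the division of reads between them is uncertain.

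Between dmPGE2+APAP and APAP none of the 110 transcripts was called in limma, as for the whole table (0), and 7 had an unadjusted p under 0.05, where 6.62% of the whole table had. In dmPGE2+APAP livers relative to control, 3 were higher and none lower, beside 1.79% of the whole table called (1.26% higher and 0.531% lower). They were Psme4-207 (4.05-fold, adjusted p = 0.018), Psmd8-205 (2.67-fold, adjusted p = 0.0369) and Psmd4-205 (2.55-fold, adjusted p = 0.0471) in limma. Psme4-207 was called for APAP against control in each of 17 alternatives, Psme4-203 and Psmd8-205 in 13 each, Psmd4-205 in 9, Psmd1-207 in 7 and Psmd14-202 in 4. Psme1-205 was called in 9 of the 16 in which it was tested. For dmPGE2+APAP against control, Psme4-207 was called in 12 of 17 alternatives, and Psmd8-205 and Psmd4-205 in 4 each. Without APAP 1 or without APAP 3, Psme4-207 was the single isoform called, where 0.813% and 1.1% of all transcripts were called. Without any 1 of the controls 2 or 3 isoforms were called, beside 1.22% to 1.48% of all transcripts.

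**Figure D5:**
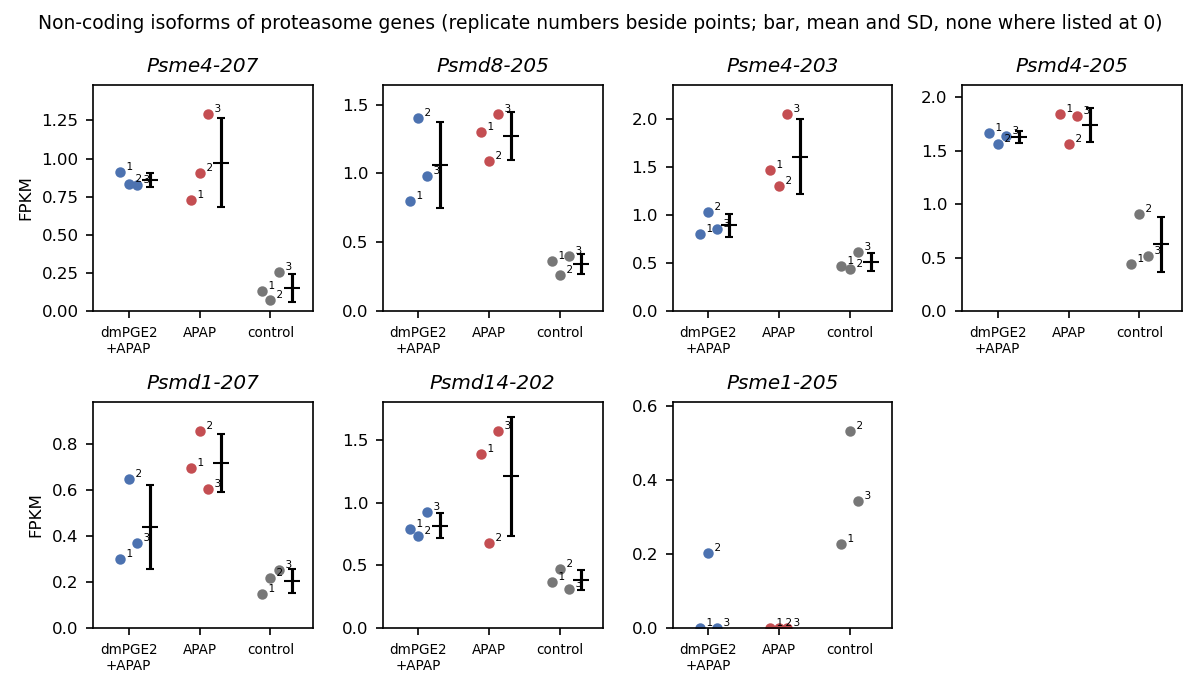
Deposited FPKM of the 7 non-coding isoforms of proteasome genes called for APAP against control, in each library (points, with replicate numbers); bars are group means with SD, left out where an isoform is listed at 0. The 6 higher isoforms lie above the control values in all APAP libraries, and Psme1-205 is listed at 0 in all 3 APAP libraries.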

How the data were processed

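The deposited mRNA table gives FPKM per gene and the deposited lncRNA table FPKM per transcript, per the file headers. The submitters' processing notes list HISAT2 and the build GRCm38 (mm10). Quantifier, annotation release and strand setting are not given in the sources used here, and 2 further deposited tables labelled as read counts were not used because their values scale with genomic span. The control columns carry a name the labels do not define and were taken as controls by elimination, since every other column names a treatment. Depth is therefore unknown, and no counting intervals are given.

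FPKM was divided by a library factor (unweighted trimmed mean of log ratios, 30% by ratio and 5% by abundance), 0.1 was added and log2 taken, so changes of low genes are understated. The removed shift was -0.12 (APAP against control), -0.02 (dmPGE2+APAP against APAP) and -0.14 (dmPGE2+APAP against control). All 9 libraries entered limma 3.58.1 (R 4.3.3) with 3 group means, an abundance trend, 6 residual degrees of freedom, two-sided tests and a threshold of 0.05 after Benjamini-Hochberg adjustment over each whole table. A feature was tested if 3 or more libraries reached 0.5 FPKM (11557 genes) or 0.1 FPKM (22984 lncRNA-table transcripts). The lncRNA factor used both tables. The script was tested on simulated data. Printed means and SDs are of deposited FPKM. All 40 members matched GENCODE M21 by ID; 36 had the same coordinates. With blastn 2.17.0, 12 matched another gene at 95% identity or more over at least 200 bases.

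The members and lists were chosen with earlier results of these data known. Named genes are called members, Psmb5, Psmb6 and Psmb7, the highest and lowest of each role, the 3 largest changes of each comparison, and members under the filter; others were named after their values were seen. Some genes of the ubiquitin list are not reported here. Alternatives were no rescaling or median scaling, other pseudocounts (0.01 and 1) and filters, no trend, pairs of groups alone, a replicate block and each library left out.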

Additional observations from a re-analysis of the deposited data

How the results depend on the processing

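The median log2 fold changes of the members depended on which control was left out. Leaving out 1 library at a time gave medians of -0.21 to -0.00 for APAP against control, 0.01 to 0.12 for dmPGE2+APAP against APAP and -0.16 to 0.04 for dmPGE2+APAP against control. For both comparisons with control the lowest value was without control 3 and the highest without control 1, and the median of dmPGE2+APAP against control was above 0 without control 1 (0.04) or control 2 (0.02). Without rescaling the medians were -0.21, 0.04 and -0.17 for the 3 comparisons in that order. The count of members called for APAP against control was 2 in the report, where 20.9% of all genes were called. It was 6 without rescaling between libraries (26.7% of all genes) and 1 without the filter on low values (14.8%). It was 1 without the abundance trend (20.6%) and 0 when fitted on those 2 groups alone (15.5%). With 1 library left out it was 0 to 4. It was 0 without APAP 3 (13.3%), control 1 (15.7%) or control 2 (14.1%), and 4 without control 3 (20.1%). For dmPGE2+APAP against control, 0 in the report (16.3% of all genes), it was 2 without rescaling (21.7%). With 1 library left out it was 0 to 1 (1 without control 3, where 15.2% of all genes were called). For dmPGE2+APAP against APAP it was 0 throughout, where at most 0.434% of all genes were called. Of the isoforms, 7 were called for APAP against control in the report (3.66% of the whole table) and 11 with a filter of 0.5 FPKM (11.2%). The count was 4 on those groups alone (2.9%) and 4 with the replicate block (1.95%). With 1 library left out it was 1 to 6, where 0.813% to 3.65% of the whole table was called. For dmPGE2+APAP against control, 3 in the report (1.79% of the whole table), 1 was called without rescaling (1.3%) and 1 with a pseudocount of 1 (1.16%). On those groups alone 1 was called (1.12%), and with the replicate block 1 (0.474%). With 1 library left out it was 0 to 1, where 0.421% to 1.58% of the whole table was called. The cause was not tested.

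The Psme2 call held in 13 of 19 alternatives, which include the sum with Psme2b chosen after seeing the data. It was lost with that sum, with those groups alone and without APAP 1, APAP 3, control 1 or control 2. The Psma4 call was lost in 10 of 18. Both log2 fold changes stayed below 0, at -0.56 to -0.30 for Psme2 and -0.47 to -0.26 for Psma4. The Psmb9 call was lost without APAP 1, APAP 3, control 1 or control 3 and with those groups alone. Same-numbered libraries correlated at -0.12 to 0.07 in their deviations from the group means, and libraries with different numbers at -0.15 to 0.15. With 3 libraries per group these values cannot settle whether same-numbered libraries were paired. With the replicate block 2, 0 and 0 members were called, beside 17.6%, 0% and 12.7% of all genes. With depth unknown, the counting error of low values such as the isoforms cannot be given.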
